A study of Mus musculus with 6 samples.

Results

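The Hedgehog pathway was followed here through 9 genes in cells sorted as retinal vascular endothelial cells (VECs). The cells came from control pups and from pups with a targeted deletion of Bmal1, the core activator of the circadian clock. The 9 genes were Shh, Ptch1, Smo, Gli1, Gli2, Gli3, Hhip, Sufu and Boc. They were picked by gene name from the 55487 genes of the expression table, with earlier results of these data known. RNA was sequenced from GFP and tdTomato double-positive cells sorted from retinas of P7.5 mouse pups, 3 control and 3 Bmal1;CKO libraries. Control pups were tdTomato FL/+;Pdgf-icreER, and Bmal1;CKO pups were Bmal1 FL/FL;tdTomato FL/+;Pdgf-icreER. Both groups thus carried the tamoxifen-inducible Cre transgene, which also makes the GFP, and the Cre-dependent tdTomato reporter. Tamoxifen was given to both over P0.5 to P2.5. The control pups had no floxed Bmal1 allele, and the groups shared the Cre, the reporter and the drug. Each library is labelled as a replicate of its own. The libraries are called control libraries 1 to 3 and Bmal1;CKO libraries 4 to 6, after the order of the columns.

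In Hedgehog signalling a secreted ligand, Sonic, Indian or Desert hedgehog, binds the receptor Patched 1 (Ptch1). Without ligand Ptch1 holds back Smoothened (Smo), a membrane protein that works at the primary cilium. Co-receptors such as Boc help the ligand to bind, and Hhip binds and sequesters it. Once Smo is released, the zinc finger factors Gli1, Gli2 and Gli3 are freed from Sufu and switch on targets, among them Ptch1, Gli1 and Hhip themselves, so that the pathway reports on and damps its own activity. Gli3 is mostly processed to a repressor when no ligand is present. In the developing retina Shh is known to be made by ganglion cells and to act on neural progenitors and on astrocytes along the optic nerve.

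The depth was 71145068 to 104017800 reads on genes per library. Normalized counts are reads divided by a size factor, which ran from 0.711 to 1.40, so that 1 read was worth 0.715 to 1.41 normalized counts. Control library 1 stood apart. In it 945 genes, or 4.62% of the 20459 genes tested, had no read although each of the other 5 libraries had at least 10, against 2 to 105 genes for any other library. All 10 endothelial markers had at least 10 reads in every library. Markers of other retinal cells were read as well in the sorted cells. The 6 microglia and macrophage markers summed to 1021030 to 2937510 normalized counts over the libraries and the 6 rod markers to 269113 to 595146, beside 102718 to 324029 for the endothelial markers. These sums are not scaled to transcript length, so they are compared between libraries and not between lists. In each of the 8 marker lists the control and Bmal1;CKO sums overlapped. Arntl, the gene that encodes Bmal1, had 2706 ± 915 normalized counts in control and 2314 ± 492 in Bmal1;CKO (SD, n = 3 each), and the groups overlapped. A whole-gene count also holds reads from outside the floxed part, so it does not check the deletion.

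Smo was the most abundant of the 9 genes, and the ligand Shh was close to absent. Compared per kilobase of exon, the median normalized count over the 6 libraries was 418 for Smo, 113 for Sufu, 34.6 for Ptch1 and 18.2 for Gli3. Far lower were Gli1 at 2.52, Gli2 at 1.24, Hhip at 0.572, Boc at 0.345 and Shh at 0.152. The lowest Smo value, 223 per kilobase, was above the highest Sufu value of 175. Sufu and Ptch1 overlapped, since Sufu began at 23.4 per kilobase and Ptch1 ran from 30.4 to 59.5. Ptch1 and Gli3 did not overlap, as Gli3 ended at 29.3 per kilobase. The 5 genes at the low end overlapped one another throughout, each with libraries below 1 per kilobase and with a highest value of 6.66 to 18.6. The sorted samples therefore held RNA of the receptor, the signal transducer and the inhibitor Sufu in every library. The ligand, the activator Gli2, the co-receptor Boc and the feedback genes Gli1 and Hhip were at the edge of detection. Which cell type carried this RNA was not tested.

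Of the 9 genes, 6 had at least 10 reads in at least 3 libraries and were tested with all other such genes, and 4 of them, Ptch1, Smo, Gli3 and Sufu, had at least 10 reads in every library. Shh, Gli2 and Boc fell below this filter and were fitted among the 34419 genes with any read, an addition made after the data were seen. By limma-trend, a linear model of log2(normalized count + 1) with the spread shared over genes, 0 of the 6 passed an adjusted p of 0.05. The background was the same, 0 of 20459 genes or 0%. At an unadjusted p under 0.05, 1007 genes were past the line, 648 of them higher in Bmal1;CKO (3.17%) and 359 lower (1.75%), and DESeq2 called 67 genes after adjustment, none of them one of the 9. Of the 6 tested genes 4 had a higher and 2 a lower mean log2 value in Bmal1;CKO, and 1, Hhip, was past the unadjusted line. Hhip reached 10 reads in its Bmal1;CKO libraries alone, so with its control counts it could enter the test only by being higher. The control and Bmal1;CKO libraries did not overlap for Gli2, Gli3 and Hhip, higher in Bmal1;CKO, and for Ptch1, lower in Bmal1;CKO. Over the genes with a read, the share without overlap was 5.02% higher and 3.18% lower, and over the tested genes it was 6.62% higher and 4.54% lower. The limma-trend p-values set each mean difference against the spread between these 3 libraries of each genotype, partly shared over genes. In RNA from a sort fewer expressing cells and less RNA per cell cannot be told apart. An exact permutation test of 3 libraries against 3 cannot give a two-sided p below 0.1.

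**Figure D1:**
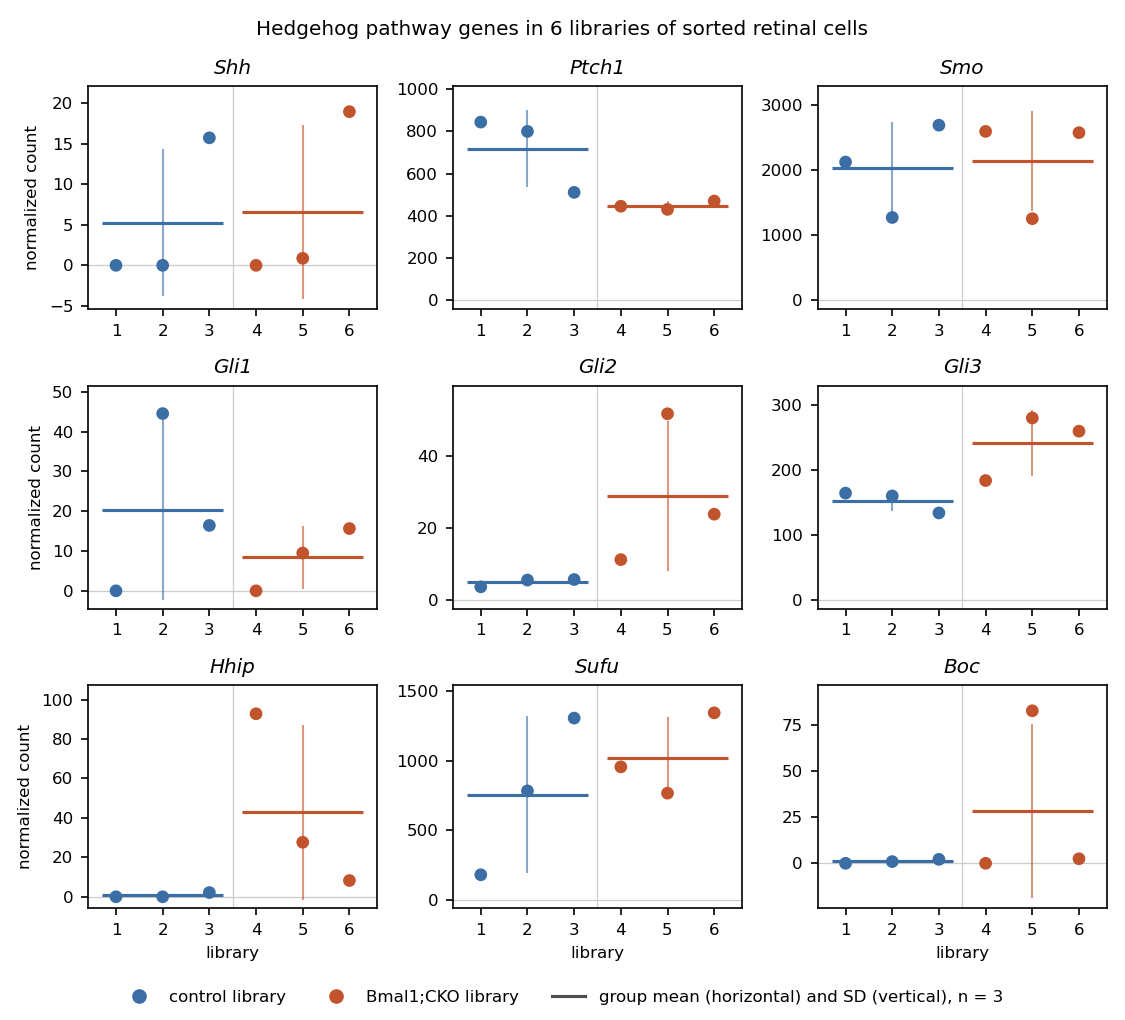
Normalized count of each of the 9 genes (vertical axis, each panel with its own linear scale) in control libraries 1 to 3 and Bmal1;CKO libraries 4 to 6, with the group mean as a horizontal line and the SD as a vertical line, n = 3 per group. In normalized counts the groups do not overlap for Ptch1, Gli2, Gli3 and Hhip and overlap for the other 5 genes. Boc and Shh each rest on 1 or 2 libraries.

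Shh (chr5:28456815-28467256, minus strand, GRCm38), the ligand, gave reads in 1 control library and in 2 Bmal1;CKO libraries. Its normalized counts were 0, 0 and 15.7 in control and 0, 0.864 and 18.9 in Bmal1;CKO. They came from 22 control reads and 24 Bmal1;CKO reads in all. The high library of each group was control library 3 and Bmal1;CKO library 6, and the rest were at or within 1 read of 0. A count of 0 allows up to 3 reads, or 2.78 to 4.22 normalized counts in the libraries without a Shh read, which covers counting error only because the RNA was amplified before sequencing. The log2 difference was 0.38 with a standard error (SE) of 1.51, and it changed sign in 3 of the 6 fits that left out 1 library. Exons of 2 antisense genes, Gm26894 and 9530036O11Rik, cover 361 and 446 bases of Shh exon on the other strand, and the use of strand in the counting is not given in the sources used here. 9530036O11Rik had 244 reads in control library 1, where Shh had none, and 0 in every other library. Gm26894 was not among the genes of the expression table. The 8 ganglion cell markers, whose cells are known to make Shh, summed to 15651 to 24232 normalized counts in control and 14338 to 15860 in Bmal1;CKO. Of these Thy1, Slc17a6 and Pou4f2 were at 0 reads in control library 1, and Pou4f2 also in Bmal1;CKO library 5. Rbpms was highest in control library 1, at 3560 normalized counts. Isl1 was the largest part of the sum in each library, at 5650 to 14441. Pou4f1 had 35.7, 315.5 and 384.4 in control and 95.6, 74.3 and 79.9 in Bmal1;CKO. The sum was 23335 in control library 3 and 15860 in Bmal1;CKO library 6, the libraries with most Shh, and 24232 in control library 2, where Shh had no read. Whether carried-over neurons had a part in the Shh reads was not tested.

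Boc (chr16:44485049-44558897, minus strand), the ligand co-receptor, was likewise carried by 1 library. Normalized counts were 0, 0.928 and 2.14 in control and 0, 82.9 and 2.47 in Bmal1;CKO. Boc had 4 control and 99 Bmal1;CKO reads in all, of which 96 lay in Bmal1;CKO library 5, and no other library had over 3. The fitted log2 difference of 1.86 (SE 1.61) became 0.03 when that library was left out, so the difference rested on 1 library.

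Ptch1 (chr13:63508328-63573598, minus strand), the receptor, was lower in all 3 Bmal1;CKO libraries than in any control library. It had 844, 800 and 512 normalized counts in control and 446, 431 and 470 in Bmal1;CKO. The Bmal1;CKO libraries lay close together, at 449 ± 19.9 (SD, n = 3), whereas the controls spread over 719 ± 181, and control library 3 stood nearest to the Bmal1;CKO values. The mean was 0.625 times that of control. On the log2 scale the difference was -0.64 (SE 0.42, 95% confidence interval -1.62 to 0.34), with an adjusted p of 0.883 by limma-trend and an exact permutation p of 0.1. It was negative under each of the 15 alternative settings, with extremes of -0.87 when control library 3 was left out and -0.51 when control library 1 was. Counting error was small beside the spread, since 2264 control and 1387 Bmal1;CKO reads lay behind these values.

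Hhip (chr8:79965851-80058006, minus strand), the decoy that binds the ligand, was nearly unread in control and read in every Bmal1;CKO library. Normalized counts were 0, 0 and 2.14 in control and 92.8, 27.6 and 8.24 in Bmal1;CKO. These stood for 0, 0 and 3 reads against 66, 32 and 10 reads. All 3 Bmal1;CKO libraries were above the controls, and they differed widely among themselves, with the highest in library 4 and the lowest in library 6. Set against the depth, the Bmal1;CKO read rate was 38.4 times the control rate, with an exact 95% counting interval of 12.8 to 189 that leaves out the spread between animals. The log2 difference was 4.32 (SE 1.36, 95% confidence interval 1.14 to 7.49). By limma-trend the unadjusted p was 0.0142 and the adjusted p was 0.883, and the exact permutation p was 0.1. Hhip passed the filter through its Bmal1;CKO libraries alone, so a gene with its control counts could enter the test only by being higher. Its fitted size depended on the constant added before the logarithm, from 1.95 with 10 to 5.03 with 0.5. The adjusted p ran from 0.293 to 1.00 over the alternatives. A gene on the other strand, Gm27820, shares 175 exon bases with Hhip and had no read in any library.

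Ptch1 and Hhip, the ligand-binding pair that is known to be switched on by the pathway, thus had opposite signs of their differences. Their promoters are shown for that reason, as the 250 bases before the RefSeq start on the gene's own strand, with each CG dinucleotide in capitals. The Ptch1 window is chr13:63565736-63565985 and the Hhip window chr8:80058009-80058258, both on the minus strand of GRCm38.p6. On that strand the Ptch1 gene begins at 63573598, so its window precedes a start inside the gene. The bases before the outermost Ptch1 start were not searched.
Ptch1: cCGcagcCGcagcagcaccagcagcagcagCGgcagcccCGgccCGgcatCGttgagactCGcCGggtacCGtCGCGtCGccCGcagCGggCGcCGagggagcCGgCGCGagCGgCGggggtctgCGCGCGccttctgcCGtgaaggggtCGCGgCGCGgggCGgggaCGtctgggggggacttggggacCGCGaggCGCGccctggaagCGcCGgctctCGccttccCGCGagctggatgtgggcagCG
Hhip: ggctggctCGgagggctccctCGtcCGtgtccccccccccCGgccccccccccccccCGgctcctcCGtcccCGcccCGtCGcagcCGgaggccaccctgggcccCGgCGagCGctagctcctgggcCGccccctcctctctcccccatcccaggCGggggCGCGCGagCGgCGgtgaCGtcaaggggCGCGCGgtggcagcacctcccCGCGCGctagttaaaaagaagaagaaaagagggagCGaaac
Neither window held the E-box CACGTG, the sequence that Bmal1 and its partner Clock are known to bind, nor the GLI motif GACCACCCA, searched on both strands. The same held for the windows of Smo, Gli2, Gli3 and Sufu, the other 4 of the 9 genes with a promoter in the table. Over 32851 mouse promoter windows of this length, 6.02% had the E-box and 0.225% the GLI motif, so a lack of both is the usual case and says nothing of binding elsewhere. The windows were rich in CG. Ptch1 had 41 CG dinucleotides, a number reached by 1.09% of all windows, and Hhip had 28, reached by 7.61%, against a median of 6. Gli3 followed Ptch1 with 34 and Sufu was nearest to the median with 8. A high CG content was shared by the gene that was read in every library and by the one that was nearly unread in control.

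Smo (chr6:29735503-29761365, plus strand), the signal transducer, did not separate the genotypes. Normalized counts were 2122, 1272 and 2687 in control and 2592, 1254 and 2573 in Bmal1;CKO. Each group had 1 low library, control library 2 and Bmal1;CKO library 5, and the others lay at similar heights in both groups. The log2 difference was 0.07 (SE 0.42, 95% confidence interval -0.92 to 1.05), with an adjusted p of 0.979 by limma-trend. This interval still holds a doubling and a fall of nearly as much, so the design does not show that Smo was the same.

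Sufu (chr19:46396896-46488804, plus strand), which holds GLI proteins inactive, had 180, 783 and 1308 normalized counts in control and 956, 767 and 1345 in Bmal1;CKO. Control library 1 was the low value, and the other 5 libraries covered the same range in both groups. The log2 difference of 0.81 (SE 0.73, adjusted p of 0.883 by limma-trend) rested on that library, since it was -0.024 without control library 1.

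The 3 GLI genes had differences of unlike sign. Gli1 (chr10:127329882-127341974, minus strand), an activator whose own transcription is a standard readout of the pathway, had 0, 44.5 and 16.4 normalized counts in control and 0, 9.50 and 15.7 in Bmal1;CKO. Each genotype had a library without a Gli1 read, control library 1 and Bmal1;CKO library 4, and the highest was control library 2 with 48 reads. The log2 difference of -0.73 (SE 1.86, 95% confidence interval -5.05 to 3.60) changed sign without control library 2, to 0.42, and without Bmal1;CKO library 4, to 0.51, and was -2.33 without control library 1. A gene on the other strand, Arhgap9, shares 62 exon bases with Gli1 and had 1994 to 4183 reads per library. It had 3216 reads in control library 1, where Gli1 had none.

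Gli2 (chr1:118834132-119053619, minus strand), the main activator of the pathway, was read in all 6 libraries at a low level. It had 3.69, 5.57 and 5.72 normalized counts in control and 11.3, 51.8 and 23.9 in Bmal1;CKO. In normalized counts every Bmal1;CKO library was above every control library. The reads behind them were 8, 60 and 29 against 3, 6 and 8. Bmal1;CKO library 4 and control library 3 thus had equal reads and differed by their size factors, 0.711 and 1.40. The read rate was 6.09 times that of control with an exact 95% counting interval of 3.61 to 10.9. That interval leaves out the spread between animals, and 60 of the 97 Bmal1;CKO reads lay in library 5. The spread between Bmal1;CKO libraries was wide, and the log2 difference was 2.09 (SE 1.45, 95% confidence interval -1.19 to 5.37), with an adjusted p of 0.813 by limma-trend among the genes with any read and an exact permutation p of 0.1. With each library left out in turn it lay between 1.56, without Bmal1;CKO library 5, and 2.62, without Bmal1;CKO library 4. Among the other settings it was lowest at 1.24, with a constant of 10 (unadjusted p of 0.0458 by limma-trend, adjusted p of 0.853), and highest at 2.53 by DESeq2 (unadjusted p of 0.0242, adjusted p of 0.481).

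Gli3 (chr13:15463235-15730026, plus strand), the main repressor, was better read and differed by less. Normalized counts were 165, 161 and 134 in control and 184, 281 and 260 in Bmal1;CKO. The 3 controls lay together at 153 ± 16.5, and the Bmal1;CKO libraries at 242 ± 50.8 (SD, n = 3 each), all of them above the controls and library 4 only just so. The log2 difference was 0.64 (SE 0.60, 95% confidence interval -0.76 to 2.04), with an adjusted p of 0.883 by limma-trend and an exact permutation p of 0.1. It was positive under each of 15 alternative settings, between 0.52 and 0.82. Gm6556 on the other strand shares 188 exon bases with Gli3 and had 1 to 4 reads in 4 libraries, 26 in Bmal1;CKO library 4 and 20 in Bmal1;CKO library 6, which is few beside the 131 to 325 reads of Gli3.

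**Figure D2:**
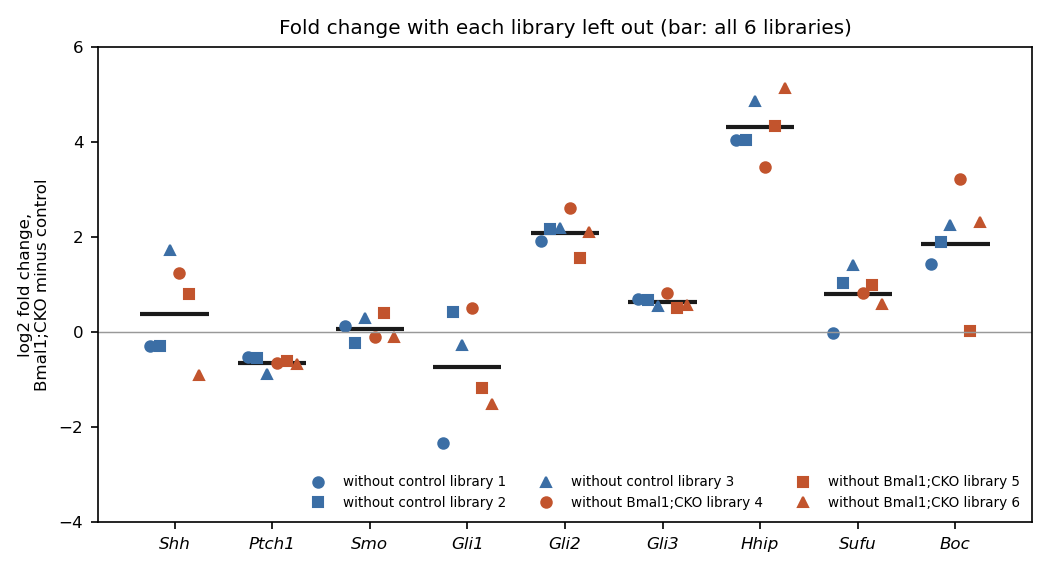
Log2 fold change of each of the 9 genes, Bmal1;CKO minus control on log2(normalized count + 1), with all 6 libraries (black bar) and with each library left out (blue, a control library; orange, a Bmal1;CKO library). Ptch1 stays below 0 and Gli2, Gli3 and Hhip stay above 0 throughout, Boc drops to 0.03 without Bmal1;CKO library 5, Sufu drops to -0.024 without control library 1, and Shh, Smo and Gli1 cross 0.

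Another 45 genes of the pathway were listed by role, and 42 of them passed the filter. By limma-trend 25 of the 42 had a higher and 17 a lower mean log2 value in Bmal1;CKO and 0 passed an adjusted p of 0.05. At an unadjusted p under 0.05 stood 2 genes, Ccnd1 higher and Prkacb lower, and 3 higher and 2 lower genes had groups without overlap. These counts stand beside shares over all tested genes of 3.17% higher and 1.75% lower past the line, and of 6.62% higher and 4.54% lower without overlap. The median log2 difference was 0.093, beside 0.11 over all tested genes. The median of all genes was 0.10 with limma-trend on log2 CPM under TMM scaling, and -0.03 with edgeR under either TMM or the DESeq2 size factors.

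Among the ligands and the genes that release them, 7 of 8 passed the filter and all 7 overlapped between the groups. Desert hedgehog, which is known to be made by endothelial and Schwann cells, was the ligand with reads in every library. Dhh had 92.3, 83.5 and 212.9 normalized counts in control and 227.8, 100.2 and 124.4 in Bmal1;CKO, a log2 difference of 0.26 (SE 0.77). Ihh was erratic, with 291.6, 4.6 and 0.7 in control and 0, 38.9 and 44.5 in Bmal1;CKO. The acyltransferase Hhat, which attaches palmitate to the ligand, had 408 to 433 normalized counts in control and 361 to 625 in Bmal1;CKO. Disp1 and Disp2, which release the lipid-bearing ligand, had log2 differences of -0.44 and 0.25, and Scube1 and Scube3, which carry it off, of 1.25 and 0.09. Without control library 1 these became -0.14 for Disp1, -0.72 for Disp2, 1.21 for Scube1 and -0.30 for Scube3, and that of Dhh became 0.085. Scube2 was below the filter.

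The 4 other receptors and co-receptors described here, Lrp2, Cdon, Gas1 and Gpc3, each had a higher mean log2 value in Bmal1;CKO, and Lrp2 had groups without overlap. Lrp2, a large endocytic receptor that can bind Shh, had 39.4, 4.6 and 45.0 normalized counts in control and 92.8, 91.6 and 93.1 in Bmal1;CKO. The Bmal1;CKO values were nearly equal and all above control, and the log2 difference was 2.10 (SE 1.11, unadjusted p of 0.0975 by limma-trend). The co-receptor Cdon, a relative of Boc, had 124.3, 414.8 and 480.9 in control and 392.4, 430.1 and 318.0 in Bmal1;CKO. Gas1, a ligand co-receptor anchored in the membrane, had 135.3, 4311.4 and 3493.2 in control and 4541.4, 3866.0 and 4461.6 in Bmal1;CKO. Gpc3, a glypican that competes with Ptch1 for the ligand, had 17.2, 433.4 and 1491.9 in control and 838.2, 141.6 and 141.7 in Bmal1;CKO. The last 3 genes were all lowest in control library 1, and without it their log2 differences were -0.24 for Cdon, 0.14 for Gas1 and -1.64 for Gpc3.

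Control library 1 was low for some cilium and other pathway genes too. It was the lowest library for 16 of the 42 genes, beside 31.8% of all tested genes. Grk2, Arrb2 and Ift88 of the cilium list were highest in it. Evc2, Gpr161, Kif7 and Sfrp1 had no read in it and at least 10 in each of the other 5 libraries, 4 of the 42 genes beside 4.62% of all tested genes. Kif7, the kinesin that organizes the tip of the cilium, had 0, 290.5 and 410.1 normalized counts in control and 379.7, 413.7 and 168.1 in Bmal1;CKO. Evc2, which helps Smo to signal, had 0, 516.9 and 289.4 in control and 488.0, 203.0 and 244.7 in Bmal1;CKO. In both genes the control and Bmal1;CKO values overlapped outside control library 1. Log2 differences of 2.60 for Kif7 and 2.45 for Evc2, the largest of their lists, became -0.21 and -0.42 without that library. Sfrp1, a secreted Wnt inhibitor and described target, went from 1.88 to -0.74, and Gpr161, a cilium receptor that restrains the pathway, from 2.14 to -0.56. Gpr161 falls outside the naming rule and was named after its values were seen, as were Grk2, Arrb2, Evc and Cul3.

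Without control library 1 the median over the 42 genes was -0.17, with 0.00 over all tested genes. The 42 genes then had 5 past an unadjusted p of 0.05 by limma-trend, namely Lrp2 and Ccnd1 higher and Prkacb, Evc and Cul3 lower. Over all tested genes the same fit had 998 genes higher (4.88%) and 771 lower (3.77%) past that line. Evc, the partner of Evc2, had 4.9, 323.9 and 295.8 normalized counts in control and 99.9, 63.1 and 115.3 in Bmal1;CKO, so the sign of its log2 difference turned from 0.13 to -1.77. Cul3, the scaffold of a ligase that degrades GLI proteins, had 2944.3, 5442.5 and 3954.8 in control and 2164.5, 3159.5 and 2650.9 in Bmal1;CKO, and went from -0.60 to -0.82.

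Some of the cell type marker sums were at an extreme in control library 1. The 6 astrocyte markers summed to 520 normalized counts in it and to 1377 to 6168 in the other 5 libraries. Pax2 and Aqp4 were at 0 reads in it, Aqp4 also in 3 other libraries. Aldh1l1 was higher in control library 1 than in Bmal1;CKO libraries 4 and 5. The 6 pericyte and mural cell markers summed to 2364 in control library 1, to 45844 in control library 3 and to 4101 to 7571 in the rest, with Abcc9 at 0 reads. Rgs5 made up 2327 of the sum in control library 1 and was lower in Bmal1;CKO library 5, at 1626. The other markers of this list were each lowest in control library 1. Amacrine markers, with Gad1 at 0 reads, summed to 4634 against 8525 to 20258. Gad2 was higher in control library 1, at 593, than in control library 3 and Bmal1;CKO library 6, at 586 and 567. The other amacrine markers were each lowest in control library 1. The endothelial sum went the other way and was highest there, 324029 against 102718 to 209860. The microglia and macrophage sum was also highest there, 2937510 against 1021030 to 2893040. Sums of Muller glia, rods and ganglion cells, at 81077, 488049 and 15651 there, lay between values of the other libraries. The part of these cells in the values of Gas1, Sufu, Kif7 and the other genes low in control library 1 was not tested.

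**Figure D3:**
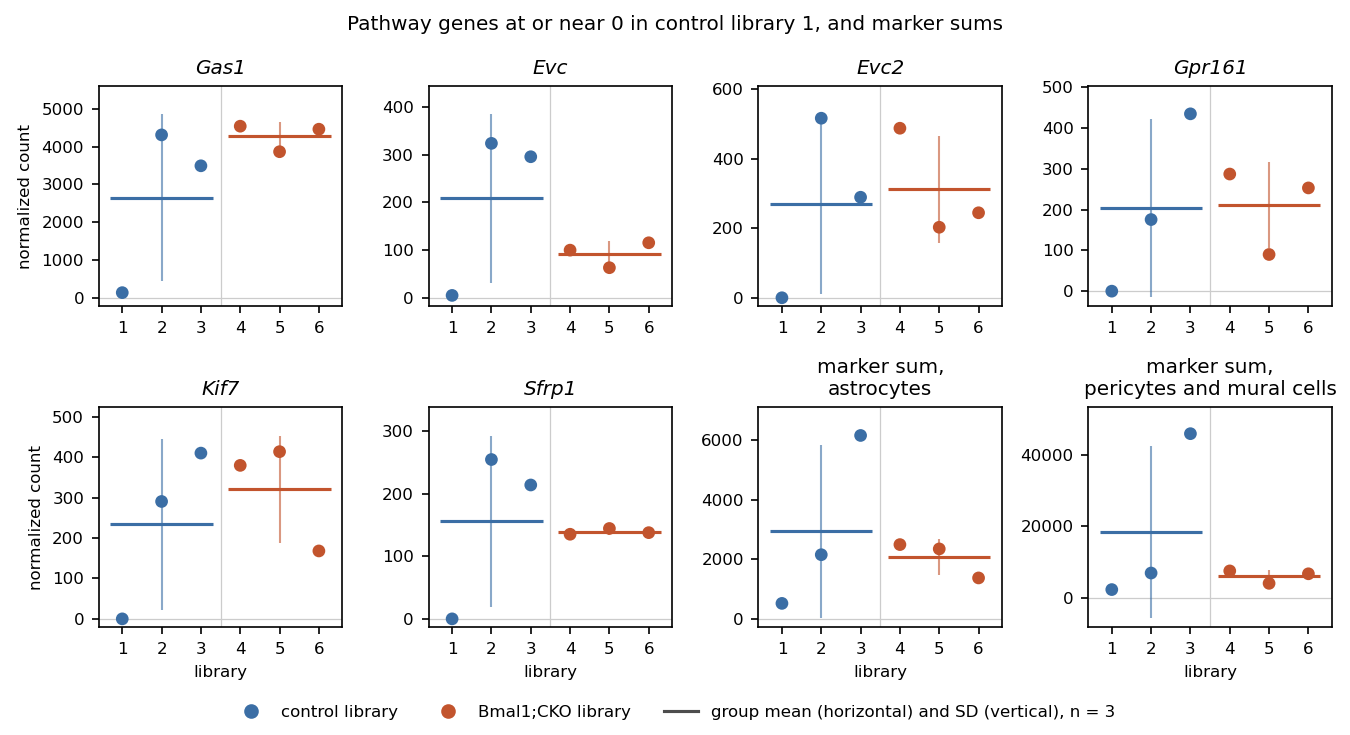
Normalized counts of 6 pathway genes and the summed normalized counts of 6 astrocyte and 6 pericyte and mural cell markers (vertical axes, each panel with its own linear scale) in control libraries 1 to 3 and Bmal1;CKO libraries 4 to 6, with group means (horizontal) and SD (vertical), n = 3 per group. All 8 panels have their lowest value in control library 1, where Evc2, Gpr161, Kif7 and Sfrp1 are at 0. The 6 genes were picked for their low value there.

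In the rest of the SMO-side and cilium list, Tulp3, which brings receptors into the cilium, was higher in every Bmal1;CKO library. Its normalized counts were 283.0, 613.4 and 424.4 in control and 1211.0, 703.9 and 781.8 in Bmal1;CKO, a log2 difference of 1.06 (SE 0.48, unadjusted p of 0.0583 by limma-trend). Ift88, needed to build cilia, had the lowest difference of that list, -0.81 (SE 0.60), or -0.51 without control library 1.

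GLI processing was the list with most genes on the lower side, 8 of 12, with a median log2 difference of -0.18. Prkacb, a catalytic subunit of protein kinase A, which phosphorylates GLI proteins for processing, had 2094.1, 2359.8 and 2915.9 normalized counts in control and 843.9, 988.1 and 1404.6 in Bmal1;CKO. The groups lay far apart, with the highest Bmal1;CKO value below the lowest control value. The log2 difference was -1.21 (SE 0.33), and it lay between -1.41 and -1.05 over the alternatives. By limma-trend the unadjusted p was 0.00661 and the adjusted p was 0.883. The companion subunit Prkaca overlapped between the groups, with a log2 difference of -0.15 (SE 0.31), and the difference between the subunits was not tested. Csnk1a1, a casein kinase that phosphorylates GLI proteins after protein kinase A, had 12852.7, 15145.4 and 11660.0 in control and 8970.4, 9619.2 and 10116.0 in Bmal1;CKO. It too did not overlap, at a log2 difference of -0.46 (SE 0.22, unadjusted p of 0.0736 by limma-trend).

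The described targets, 10 of 12 past the filter, were split evenly, 5 higher and 5 lower, with a median log2 difference of 0.04. Ccnd1, which encodes cyclin D1 of the entry into the cell cycle and answers to many pathways, had 6954.2, 4192.6 and 5410.9 normalized counts in control and 10293.9, 9747.9 and 7375.3 in Bmal1;CKO. Every Bmal1;CKO library was above control, and the log2 difference was 0.74 (SE 0.28). By limma-trend the unadjusted p was 0.0297 and the adjusted p was 0.883. Ccnd1 no longer passed an unadjusted p of 0.05 without control library 2 or control library 3, nor without Bmal1;CKO library 4 or Bmal1;CKO library 5. Snai1, a repressor of epithelial genes, had the lowest difference, -1.30 (SE 1.26), carried by 281.8 normalized counts in control library 1 against 10.4 to 67.5 in the others, and it was -0.31 without that library. Foxl1 and Nkx2-2 were below the filter.

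**Figure D4:**
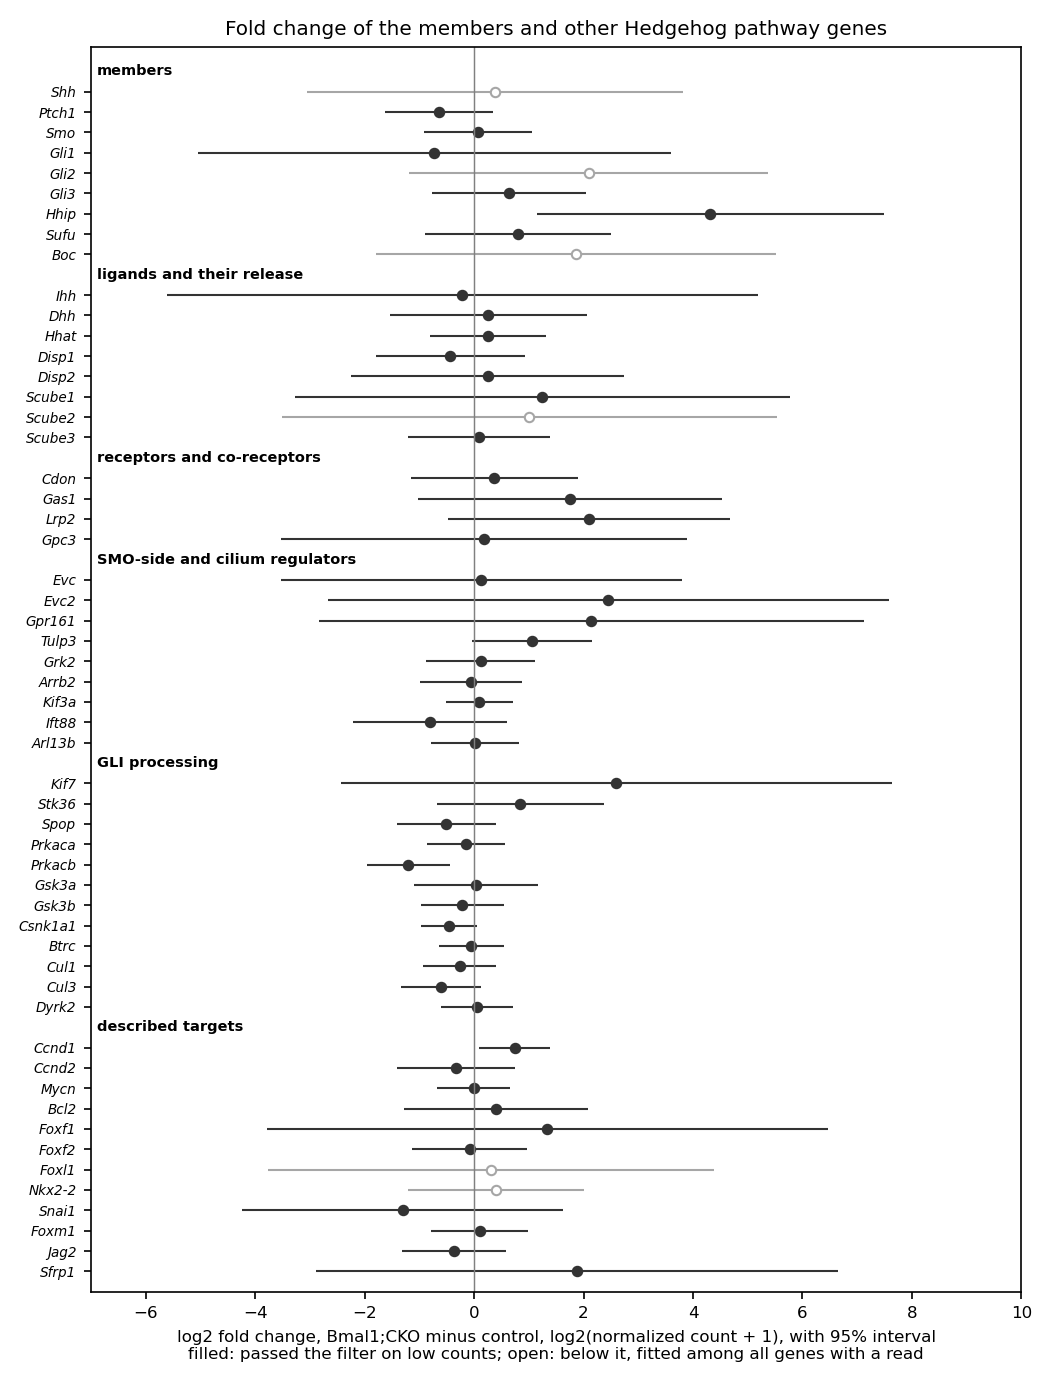
Log2 fold change, Bmal1;CKO minus control on log2(normalized count + 1), with its 95% confidence interval for the 9 genes (members) and the other 45 pathway genes by role, filled where a gene passed the filter on low counts and open where it was fitted among all genes with a read. Only Hhip, Prkacb and Ccnd1 have intervals that leave out 0, none of them past an adjusted p of 0.05. Hhip passed the filter through its Bmal1;CKO libraries alone.

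As a description with no test, the genes whose log2 profile over the 6 libraries was most like that of each well-read gene were listed. Ptch1 was followed most closely by Gm11942, Col13a1 and Gm14567, with Pearson r of 0.993, 0.992 and 0.990. All 3 had the same order of groups, Col13a1 for example, a transmembrane collagen, at 118, 113 and 27.9 normalized counts in control and 11.3, 11.2 and 16.5 in Bmal1;CKO. Smo was followed by Spag5, Ube2l3 and Parp12 (r of 0.991, 0.987 and 0.986), Gli3 by Secisbp2, Lrp2bp and Gbp4 (0.973, 0.970 and 0.969), and Sufu by Anxa11, Lipc and Scrg1 (0.997, 0.996 and 0.996). Over 6 points such values are common, with 734 genes above 0.95 for Sufu, 83 for Ptch1, 20 for Smo and 13 for Gli3, and the points share depth, library and the low control library 1.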

How the data were processed

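RNA was amplified from sorted retinal VECs of 3 control and 3 Bmal1;CKO animals with the SMART v4 kit and made into Nextera XT libraries. The authors checked reads with FastQC, trimmed them with Trimmomatic, mapped them with Bowtie to GRCm38 (mm10), counted per gene by featureCounts and used DESeq2. The use of strand in the counting is not given in the sources used here. The deposited signal is the count of a gene divided by the DESeq2 size factor of its library. The authors' own means, fold changes and p-values in the same table were not used. The columns name the genotype, and their numbers do not match the numbering in the labels, so each was used as a replicate of its genotype.

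Every value was divided by the step of 1 read, and 100% came out whole within 0.01 of a read. The 20459 genes that reached 10 reads in 3 or more libraries were fitted with limma-trend on log2(normalized count + 1), genotype the only term, and adjusted by Benjamini-Hochberg over all of them (R 4.3.3, limma 3.58.1). The count tests, edgeR 4.0.16 quasi-likelihood and DESeq2 1.42.0, were run on the recovered reads as alternatives and called 0 and 67 genes. The other alternatives were limma-voom, log2 CPM with TMM, added constants of 0.5 and 10, filters of at least 1 read in total and of at least 10 reads in every library, and each library left out. The fits were tested on simulated counts with the same spread setting for every gene and changes placed only in well-read genes. That simulation had no library like control library 1 and no changed genes with few reads, so it does not cover those cases. Single values were compared with two-sided exact permutation tests (scipy 1.17.1), and ratios of reads with exact 95% Poisson intervals. Python 3.11.15 with numpy 2.4.6, pandas 2.3.3 and matplotlib 3.10.9 made the tables and figures. Coordinates are from GENCODE M21 on GRCm38 and promoters from RefSeq on GRCm38.p6, where 6 of the 9 genes matched.

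The 9 genes and the lists were chosen with earlier results of these data known. A listed item is not reported here. All 9 genes are named. Other pathway genes are named if they are ligands, their release factors, receptors or co-receptors, if they passed an unadjusted p of 0.05, if their groups did not overlap or if they had the highest or lowest fold change of their list. For those of the 9 that had 10 reads or more throughout, the 3 most correlated genes are named.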

Additional observations from a re-analysis of the deposited data

How the results depend on the processing

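None of the 9 genes and none of the other 45 pathway genes passed an adjusted p of 0.05 under any of the alternatives that were run. DESeq2 gave no p-value for Boc. Over all genes the count called was 0 by limma-trend, 67 by DESeq2, 1 with a filter of at least 1 read in total, 1 with at least 10 reads in every library, and 0 to 6 with each library left out, 6 of them without control library 1. Among those of the 9 genes that passed the filter, the count at an unadjusted p under 0.05 was 0 with at least 10 reads in every library, since Hhip was no longer tested, and 1 under every other alternative. Gli2, below the filter, was also under 0.05 by DESeq2 and with a constant of 10. For the other pathway genes it was 2 with all libraries, 1 to 5 with each library left out, with 5 without control library 1 and 1 without Bmal1;CKO library 4 or Bmal1;CKO library 5, and 2 or 3 otherwise. The log2 differences of Ptch1, Gli2, Gli3, Hhip and Boc kept their sign under every alternative. With each library left out, those of Shh ran from -0.91 to 1.74, of Smo from -0.23 to 0.42, of Gli1 from -2.33 to 0.51 and of Sufu from -0.024 to 1.40, and all 4 changed sign. The reversed values were -0.29 for Shh without control library 1 or control library 2 and -0.91 without Bmal1;CKO library 6, -0.23 for Smo without control library 2, -0.11 without Bmal1;CKO library 4 and -0.10 without Bmal1;CKO library 6, 0.42 for Gli1 without control library 2 and 0.51 without Bmal1;CKO library 4, and -0.024 for Sufu without control library 1. The cause was not tested. The fits of Shh, Gli2 and Boc among all genes with a read, and those of Prkacb and Ccnd1 under the alternatives, were added after seeing the data, and so were the values of other pathway genes without control library 1. No paired analysis was possible because the columns cannot be matched to the replicate numbers in the labels. Shh, Gli1, Gli2, Hhip and Boc rest on few reads, so only large differences could be seen for them.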
